A study of Mus musculus with 40 samples.

Results

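The cytosolic ribosomal protein genes were followed in 39 primary mammary tumors of 2 mouse models of triple-negative breast cancer (TNBC). Members were chosen by name from the 14318 genes of the deposited table. A gene was kept when its symbol began with Rpl or Rps and a digit, or was Rplp0, Rplp1, Rplp2 or Rpsa. The 10 ribosomal S6 kinase rows (Rps6k) and the 6 rows with pseudogene names (ending in ps) were left out. This gave 87 members, of which 77 were canonical subunit genes, 46 of the large and 31 of the small subunit. The other 10 were Rpl7l1, Rpl22l1, Rpl32l, Rpl36al, Rpl37rt, Rps4l, Rps19bp1, Rps23rg1, Rps27l and Rps27rt. Rps19bp1 encodes a nucleolar protein that binds Rps19 and is no ribosomal subunit, and it was caught by the name rule alone.

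The cytosolic ribosome translates messenger RNA, and each of its subunits is built from ribosomal RNA and a fixed set of proteins, 1 gene per protein in most cases. The large subunit joins amino acids, the small subunit reads the codons, and the stalk proteins Rplp0, Rplp1 and Rplp2 recruit elongation factors. Mammalian ribosomal protein messenger RNAs are known for a pyrimidine tract at their first bases, through which their translation is tuned by the mTOR pathway, and for many processed pseudogenes. Some subunits have a paralog (a related second gene) whose product can take their place, and some, such as Rpl5, Rpl11 and Rps3, also act outside the ribosome.

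The tumors grew from firefly luciferase-expressing 4T1 or 66cl4 cells. These are mammary carcinoma lines that were both derived from the same spontaneous tumor of a BALB/c-background mouse. Cells were inoculated into the ducts of the third mammary gland pair of lactating wild-type female BALB/c mice. Each model had an untreated group, a group given anti-PD-1 (an antibody that blocks an inhibitory receptor of T cells, 200 µg per injection), a group given chitin particles (a polysaccharide that chitinase-like proteins bind, 1 mg per injection) and a group given chitin+anti-PD-1, all injections being intraperitoneal. All tumors were taken at 5 weeks after inoculation, with 5 tumors per group except 4 in untreated 4T1. A degraded tumor 3 of untreated 4T1 was not analysed here. The labels do not say whether tumors of 1 group came from separate mice, so p-values measure the spread between these tumors. Each model was 1 cell line, so the model cannot be told apart from the line.

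Values were variance-stabilized read counts on a log2 scale, on which a difference of 1 is close to a doubling for well-read genes and less than that for genes with few reads. The lowest value, 6.05, stands for 0 reads. Counted reads per tumor ran from 5105898 to 14800352, with a median of 6590274. The labelled tissue was checked against marker genes of the cell types a tumor can hold. The 8 tumor and epithelial markers (Krt8, Krt18, Krt14, Krt5, Epcam, Cdh1, Krt19 and Vim) averaged 10.66 to 12.13 in 4T1 and 8.23 to 9.40 in 66cl4, and none of them was at 0 reads throughout a group. Skeletal muscle markers, 12 of 12 in the table, reached a mean of 9.90 in 4T1 and 8.79 in 66cl4. Adipocyte markers, 10 of 10 in the table, reached 10.06 and 8.39. Values are from whole tumors, in which fewer cells of a type and less RNA per cell cannot be told apart.

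The 87 genes took 4.02% to 7.09% of the counted reads in the 19 4T1 tumors and 5.16% to 6.48% in the 20 66cl4 tumors. Averaging the values of the members within each tumor gave 11.58 ± 0.19 for the 4 untreated 4T1 tumors (mean ± SD). The anti-PD-1 group of this model stood at 11.55 ± 0.18, the chitin group at 11.76 ± 0.17 and the combined group at 11.65 ± 0.30 (n = 5 each). The corresponding 66cl4 figures (n = 5 each) were 11.78 ± 0.035, 11.64 ± 0.099, 11.69 ± 0.13 and 11.69 ± 0.080. All 66cl4 tumors (11.56 to 11.91) lay within the span of the 4T1 tumors (11.32 to 12.09), and within each model the ranges of the 4 groups overlapped.

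**Figure D1:**
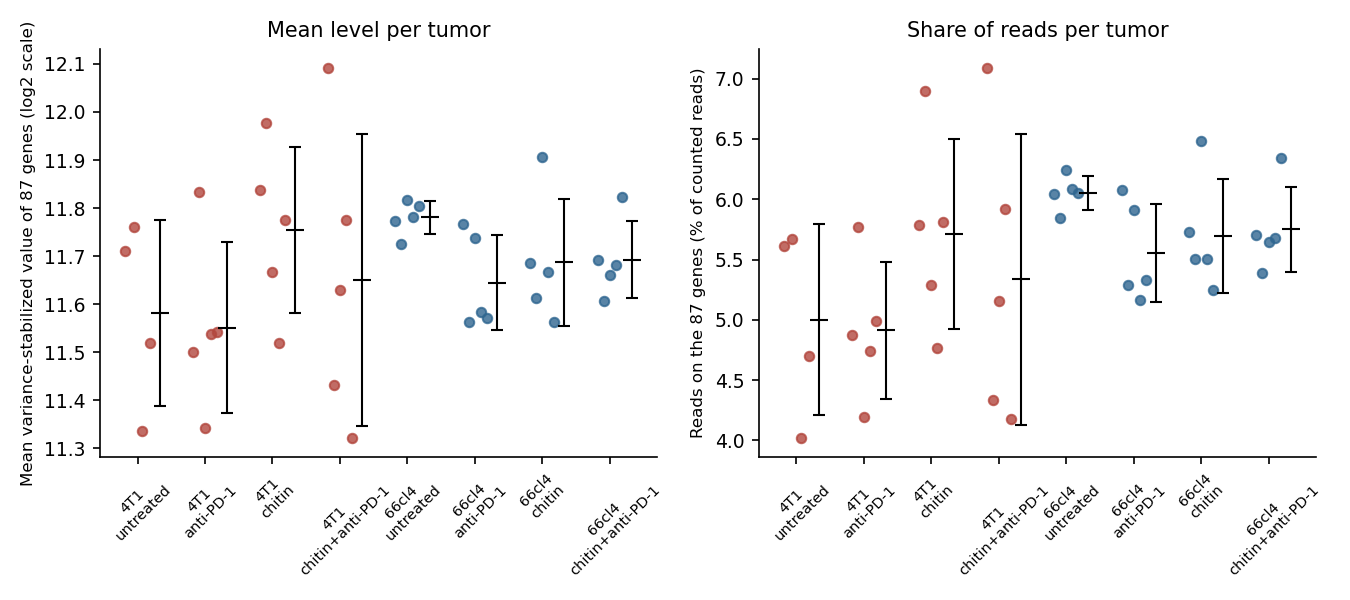
Mean variance-stabilized value of the 87 ribosomal protein genes (left, log2 scale) and their share of counted reads in percent (right), 1 point per tumor, in the 8 groups (red 4T1, blue 66cl4). Black bars are the group mean ± SD, and the 4T1 points spread from 4.02% to 7.09% of reads against 5.16% to 6.48% in 66cl4.

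Levels between members were compared per length, as RPKM (reads scaled to the counted total of a tumor and divided by the length of 1 chosen transcript), averaged over all tumors. Over the 77 canonical genes the median was 882 and the range 16.02 to 3016. The stalk gene Rplp1 was highest at 3016, followed by Rpl41, which encodes a very short large-subunit protein, at 2337. The lengths used for Rps15a and Rps20 were those of long annotated transcripts, and the levels obtained with them were 88.5 and 181.

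A group of canonical genes stood far under the median. On this per-length scale the level was 16.02 for Rps27, 23.3 for Rpl26, 33.04 for Rpl21, 58.0 for Rpl29 and 140 for Rpl30, which are the 5 canonical genes with the fewest reads. Copies of these sequences lie elsewhere in the genome. Of the 100-base windows of the Rps27 transcript, 98.4% were also present in a transcript of another gene, and the shares were 36.8% for Rpl26, 36.8% for Rpl21, 50.1% for Rpl29 and 32.5% for Rpl30. Rpl21 shared windows with 40 other genes. Over the 77 canonical genes the shared percentage and the level per length had a Spearman rho of -0.0041 (across genes, which are not independent replicates). The length of the chosen transcript enters both measures, and only annotated transcripts were searched. This rho therefore cannot show whether sharing affects the levels. The 30 canonical genes with 50% or more shared windows had a median level of 934, against 820 for the other 47. How reads that fit several genes were handled is not given in the sources used here, and its part in these levels was not tested, so the values of these 5 genes, and of other members with mostly shared windows, are uncertain.

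The coding sequence of Rps27 was set beside those of Rps27rt and Rps27l. The first 60 coding bases follow for Rps27, for its near-identical copy Rps27rt, and for the paralog Rps27l, with capitals at the bases of Rps27l that differ from Rps27 (GENCODE transcripts, 5′ to 3′).
Rps27: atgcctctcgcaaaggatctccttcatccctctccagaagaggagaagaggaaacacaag
Rps27rt: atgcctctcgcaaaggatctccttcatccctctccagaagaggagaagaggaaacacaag
Rps27l: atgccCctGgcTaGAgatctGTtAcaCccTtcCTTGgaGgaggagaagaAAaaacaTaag
Over the full coding sequence, Rps27 and Rps27rt had 0 of 252 bases different, so reads of the coding part cannot be assigned to either gene. Rps27l differed from Rps27 at 60 of 252 bases and had no shared 100-base window. Rps27l was counted far higher than Rps27 and Rps27rt. Rps27 averaged 39.6 ± 8.87 normalized reads (SD, n = 19) in 4T1 and 44.1 ± 14.0 (n = 20) in 66cl4, Rps27rt averaged 38.98 ± 15.1 and 57.5 ± 9.98, and Rps27l averaged 620 ± 87.01 and 465 ± 59.0.

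The start of the transcripts was compared among members. In RefSeq promoters (GRCm38.p6, 250 bases before to 50 after the start), 66 of the member genes had 77 promoters. A tract of C followed by at least 4 C or T, beginning at the annotated first base on the gene's own strand, was present in 15 of them (19.5%), against 2.51% of all 32851 promoters. The motif CCGGAAGT, on either strand, was in 12 (15.6%) against 3.89%. Its reverse complement can overlap such a tract. The windows below run from 10 bases before the annotated start and have the tract in capitals. The 5 shown are examples from the 15 promoters with a tract, and these examples were chosen after their values were seen.
Rpl28, chr7:4792955-4792984, plus strand: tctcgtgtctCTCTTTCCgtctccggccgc
Rpl38, chr11:114668570-114668599, plus strand: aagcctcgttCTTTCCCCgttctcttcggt
Rplp2, chr7:141447641-141447670, plus strand: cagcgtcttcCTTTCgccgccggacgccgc
Rps6, chr4:86857348-86857377, minus strand: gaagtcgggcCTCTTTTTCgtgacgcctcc
Rps27, chr3:90213629-90213658, minus strand: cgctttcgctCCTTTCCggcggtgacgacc
A match describes these letters only, and genes without one may have another start than the annotated base.

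The first comparison asked how the ribosomal protein genes differed between the 4T1 and 66cl4 tumors, each taken as the mean of its 4 treatment groups. Of the 87 members, 18 were higher and 33 lower in 4T1 (limma, Benjamini-Hochberg adjusted p under 0.05 over all 14318 genes). That is 58.6% of the members, read against 78.8% of all genes called in either direction, 40.8% higher and 38.0% lower. The differences were small. On the variance-stabilized scale, the median size without sign was 0.16 for the members and 0.28 for all genes. On it the largest of a member was 0.69, and 0 members differed by more than 1, as 9.30% of all genes did. Rps4l, which has few reads, differed by more than 1 under scaling by total reads. No member separated the models completely, whereas the 19 4T1 tumors lay wholly above the 20 66cl4 tumors for 9.87% of all genes and wholly below them for 7.98%. The median signed difference was -0.05 (all genes 0.015). With scaling by total reads (log2 of RPM + 1), it was -0.13 and the calls were 11 higher and 42 lower. Quantile normalization gave -0.15 with 14 and 45, and median centring -0.08 with 13 and 33. The shares of all genes called under these other scalings are not given here, so these calls have no background.

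**Figure D2:**
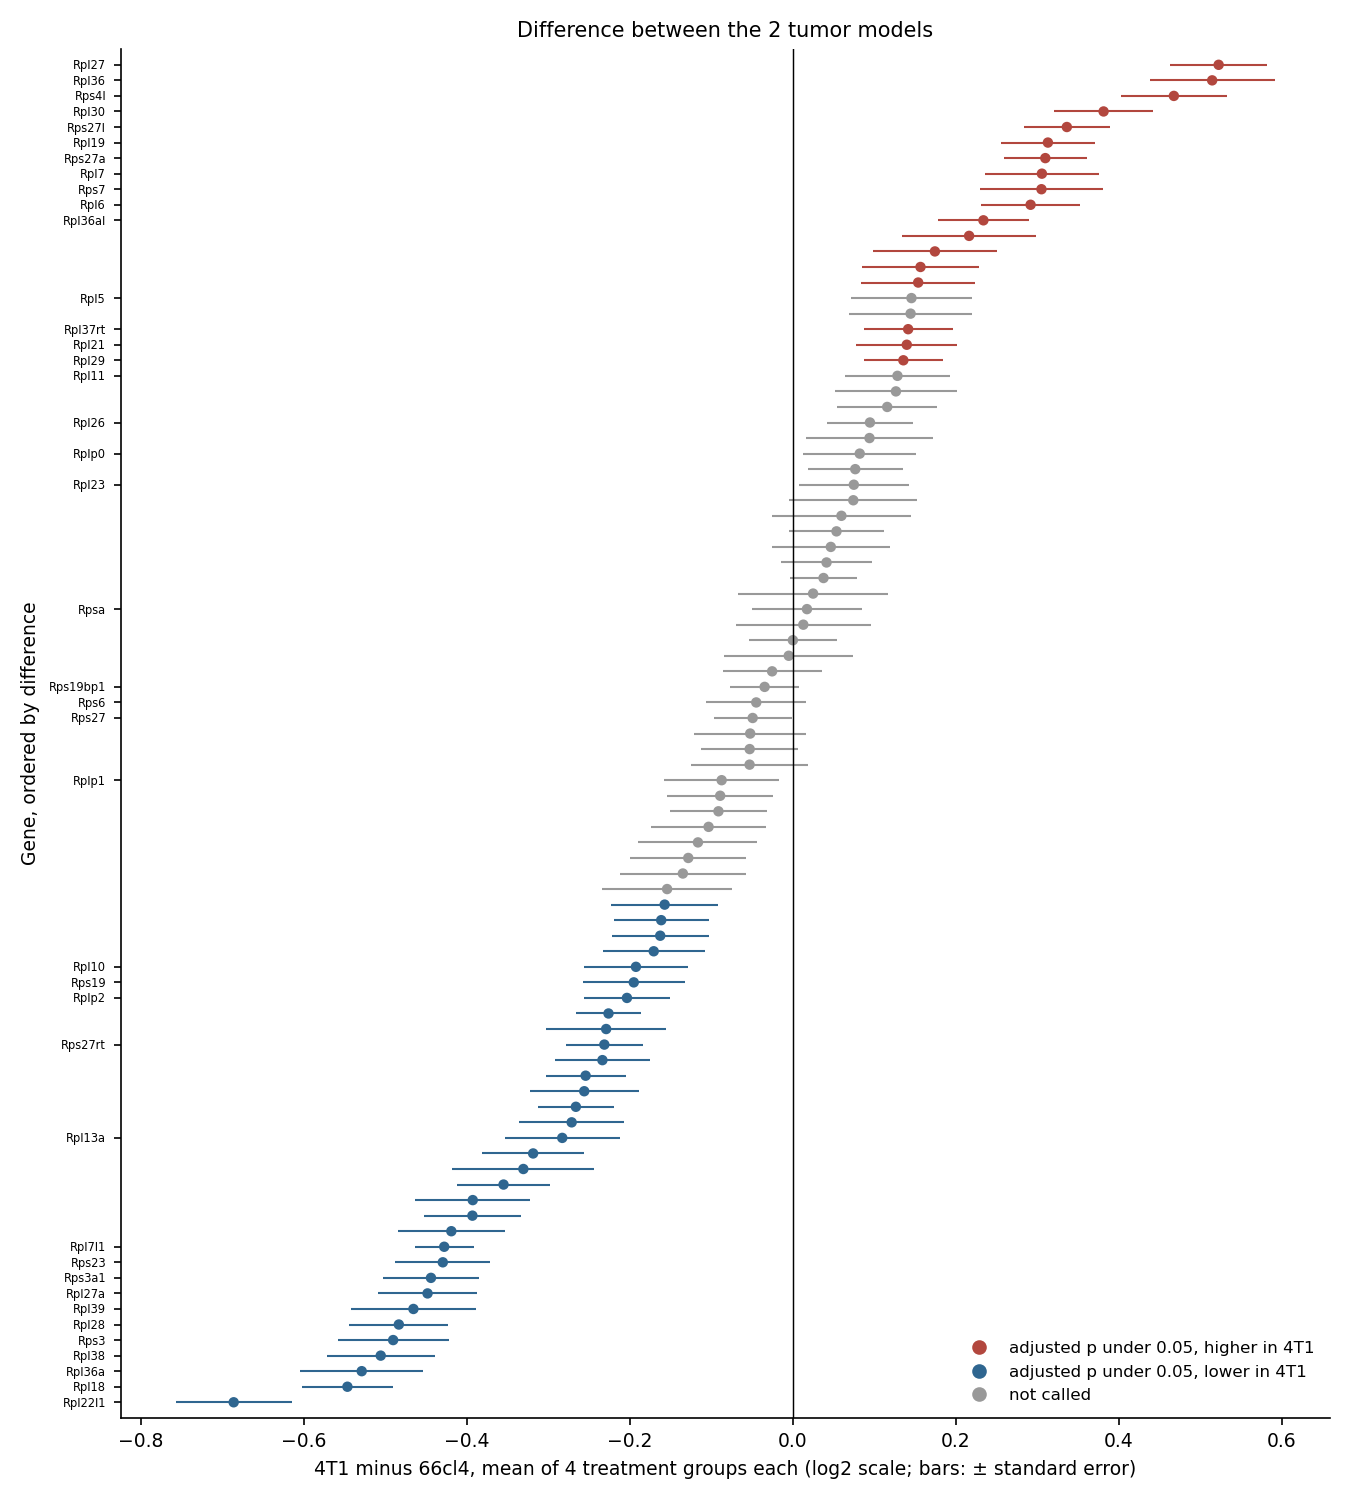
Difference between 4T1 and 66cl4 (log2 scale, mean of 4 treatment groups each) for the 87 ribosomal protein genes in order of size, with ± standard error and names for part of the genes. Red points are higher and blue points lower in 4T1 at an adjusted p under 0.05 and gray points are not called, and the values run from -0.69 (Rpl22l1) to 0.52 (Rpl27).

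By subunit, 10 of 46 large-subunit genes were higher and 13 lower in 4T1, with a median difference of -0.015. Of the 31 small-subunit genes, 4 were higher and 16 lower, with a median of -0.16. The share called was 50.0% for the large and 64.5% for the small subunit. Among all genes 78.8% were called, 40.8% higher and 38.0% lower. Under the other scalings the large-subunit median ran from -0.04 (median centring) to -0.09 (log2 of RPM + 1) and the small-subunit median from -0.18 to -0.24. The difference between the subunits was not tested.

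Among large-subunit genes lower in 4T1, Rpl18 (chr7:45715467-45720835) had the widest difference. Its values ran from 11.92 over a median of 12.33 to 12.72 in the 19 4T1 tumors and from 12.68 over 12.86 to 13.22 in the 20 66cl4 tumors. The ranges overlapped at their edge, and the difference was -0.55 ± 0.056 (SE, adjusted p = 6.5e-11). Rpl36a on chromosome X differed by -0.53 ± 0.076, Rpl38 on chromosome 11 by -0.51 ± 0.066 and Rpl28 on chromosome 7 by -0.48 ± 0.061. Rpl38 is known for its part in the translation of a subset of developmental messages. Rpl39 and Rpl27a followed with -0.47 ± 0.077 and -0.45 ± 0.061. Windows were mostly shared for Rpl36a (83.6%) and Rpl18 (55.3%), so their values are uncertain.

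Rpl27 (chr11:101442245-101445596) was the member with the largest rise in 4T1 on the variance-stabilized scale. It ran from 11.79 over 12.12 to 12.52 in 4T1 and from 11.43 over 11.63 to 11.86 in 66cl4, so only the lowest 4T1 tumors reached into the 66cl4 range. The difference was 0.52 ± 0.060 (SE, adjusted p = 1.1e-09). Rpl36 on chromosome 17 rose by 0.51 ± 0.077, Rpl30 by 0.38 ± 0.061, Rpl19 by 0.31 ± 0.058, Rpl7 by 0.31 ± 0.070 and Rpl6 by 0.29 ± 0.061. Windows were mostly shared for Rpl19 (61.0%), Rpl27 (60.6%), Rpl36 (55.3%) and Rpl6 (54.2%), so their values are uncertain. Rpl30 is among the canonical genes with the fewest reads, and its count is uncertain too. Of the others with the fewest reads, Rpl29 (0.14 ± 0.048) and Rpl21 (0.14 ± 0.062) were called, but neither was with log2 of RPM + 1 (0.11 and 0.13) or limma-voom (0.11 and 0.11). Rpl26 (0.095 ± 0.053) and Rps27 (-0.05 ± 0.048) were not.

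In the small subunit, Rps3 (chr7:99477896-99483709), which lies at the messenger RNA entry and also takes part in DNA repair, was the lowest relative to 66cl4. It ran from 12.40 over 12.78 to 13.41 in 4T1 and from 13.13 over 13.31 to 13.49 in 66cl4. The difference was -0.49 ± 0.068 (SE, adjusted p = 5.9e-08). Rps3a1 differed by -0.44 ± 0.059 and Rps23, a protein of the decoding center, by -0.43 ± 0.058. The small-subunit genes higher in 4T1 included Rps27a, which is made as a fusion with ubiquitin, at 0.31 ± 0.051, and Rps7 at 0.30 ± 0.076. Rps7 ran from 12.20 to 13.49 in 4T1 and from 12.43 to 12.85 in 66cl4. Rps27a (69.1%) and Rps7 (66.3%) had mostly shared windows, so their values are uncertain.

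Among the stalk genes, Rplp2 was lower in 4T1 by -0.20 ± 0.053 (adjusted p = 0.00083, limma), and Rplp0 (0.08 ± 0.069) and Rplp1 (-0.09 ± 0.071) were not called. Rplp1 was called under quantile normalization (-0.21), log2 of RPM + 1 (-0.16) and limma-voom (-0.16). Of 10 members with roles outside the ribosome, 5 were lower and 0 higher in 4T1, where 38.0% of all genes were lower and 78.8% were called in either direction. These were Rps3 and Rpl38, Rpl13a (-0.28 ± 0.071), which is part of an interferon-responsive translation block, Rps19 (-0.20 ± 0.063), the gene most often mutated in Diamond-Blackfan anemia, and Rpl10 (-0.19 ± 0.063), a late joining subunit. Among them, Rpl10 (91.6%) and Rpl13a (55.2%) had mostly shared windows, so their values are uncertain. Rpl5 (0.15 ± 0.074), Rpl11 (0.13 ± 0.064) and Rpl23 (0.07 ± 0.067), which bind Mdm2, were not called. Neither were Rps6 (-0.04 ± 0.061), the target of S6 kinase, and Rpsa (0.02 ± 0.068), also known as the laminin receptor. Rpl11 was called in 9 and Rpl5 in 7 of the other fits made (alternative settings and fits without 1 tumor).

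Members that are paralogs of a canonical subunit gene moved apart from it in several pairs. Rpl22l1 (chr3:28805508-28807424), which can replace Rpl22, had the largest difference of all members on the variance-stabilized scale. It ran from 8.87 over 9.27 to 10.00 in 4T1 and from 9.76 over 10.00 to 10.19 in 66cl4, and differed by -0.69 ± 0.071 (SE, adjusted p = 1.1e-10). In normalized reads this was 513 ± 136 (SD, n = 19) against 878 ± 95.2 (n = 20). Rpl22 itself differed by 0.12 ± 0.061 and was not called (adjusted p = 0.082, limma).

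Rps4l (chr6:148354656-148355596) was higher in 4T1, with 40.2 ± 20.1 normalized reads (SD, n = 19) against 12.0 ± 6.17 (n = 20) in 66cl4. With so few reads the fitted difference of 0.47 ± 0.065 understates the ratio, and it was 1.17 on the log2 of RPM + 1 scale and 1.58 with limma-voom. Rps4x, the canonical gene, was lower by -0.39 ± 0.070. Rpl36al was higher in 4T1 by 0.23 ± 0.056 while Rpl36a was lower, and the coding sequences of the pair differ at 39 of 318 bases. Windows shared with other genes made up 59.0% of Rpl36al and 83.6% of Rpl36a, so both values are uncertain. Rpl7l1 was lower by -0.43 ± 0.036 while Rpl7 was higher. Rps27l, a p53-responsive gene, was higher by 0.34 ± 0.053, and Rps27rt was lower by -0.23 ± 0.048. The Rps27rt value is uncertain, since 89.5% of its 100-base windows also occur in another gene and its coding reads cannot be told apart from those of Rps27. Rpl37rt (0.14 ± 0.055), of whose windows 77.4% are shared, so that its value is uncertain too, was called as higher, but not under median centring, quantile normalization, log2 of RPM + 1 or limma-voom. Rps19bp1 was not called (-0.03 ± 0.042). Altogether 4 of the 8 paralog-list genes in the table were higher and 3 lower. That is 87.5% called, against 78.8% of all genes, 40.8% higher and 38.0% lower. Rpl3l, Rpl10l, Rpl26l1 and Rpl39l were not among the genes analysed here.

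In untreated tumors alone, 4 members were higher and 30 lower in 4T1, against 55.8% of all genes called in either direction, 28.7% higher and 27.1% lower. All 34 were among the 51 called over the 4 treatment groups, with the same direction. The untreated tumors are part of both comparisons, so this overlap is partly built in. The median difference was -0.19. It was -0.09 without untreated 4T1 tumor 4 (29 called) and -0.25 without tumor 2, so that single tumors of this group of 4 moved it. With log2 of RPM + 1 the calls were 3 higher and 37 lower, and with quantile normalization 2 and 40, without the shares of all genes under these scalings. Rpl22l1 differed by -0.91 ± 0.15 (SE, adjusted p = 4.0e-06), Rpl18 by -0.70 ± 0.12 (adjusted p = 4.4e-06) and Rps23 by -0.69 ± 0.12 (adjusted p = 1.3e-05, all limma). The 4 higher members were Rpl27 (0.44 ± 0.13), Rpl36 (0.43 ± 0.16), Rps4l (0.40 ± 0.14) and Rps27l (0.30 ± 0.11).

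The difference between the models was set against chromosome, since the members are scattered over 19 chromosomes. On chromosome 7, 11 of 14 members were lower in 4T1 and 0 higher, with a member median of -0.28 and a median of -0.16 over the 1077 other genes there, of which 55.8% were lower and 24.3% higher. Among the 11 were Rpl18, Rps3, Rpl28, Rpl27a, Rps15a, Rpl13a, Rps13, Rplp2 and Rps19. All 4 members on chromosome X (Rpl10, Rpl36a, Rpl39 and Rps4x) were lower, with a median of -0.43 against -0.17 for the 457 other genes, of which 58.0% were lower. On chromosome 3, Rpl22l1, Rpl34 and Rps3a1 were lower (member median -0.43, other genes -0.14, of which 52.4% were lower). On chromosome 5, 3 of 6 members were higher and 0 lower, with a member median of 0.14 and 0.08 for the other genes, of which 47.5% were higher. On chromosomes 6, 8, 9, 15 and 16 members and other genes had medians of opposite sign. On chromosome 8 the median was -0.0050 for 3 members (1 lower) and 0.19 for the other genes (59.4% higher). On chromosome 9 it was -0.018 for 8 members and 0.12 for the others, on chromosome 15 -0.035 for 5 members and 0.056, on chromosome 16 -0.028 for 2 members and 0.048, and on chromosome 6 0.21 for 2 members and -0.018. Chromosome 11 held members in both directions, from -0.51 (Rpl38) to 0.52 (Rpl27).

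Over the 87 members, the difference between the models and the median of the other genes of the same chromosome had a Pearson r of 0.59 and a Spearman rho of 0.55, as a description of points that share chromosomes and tumors. The sign was the same for 64 of 87 members, and for 59.5% of the other genes. Subtracting the chromosome median lowered the SD among the members from 0.26 to 0.22. DNA copy number was not measured in these files, and its part in the result was not tested.

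**Figure D3:**
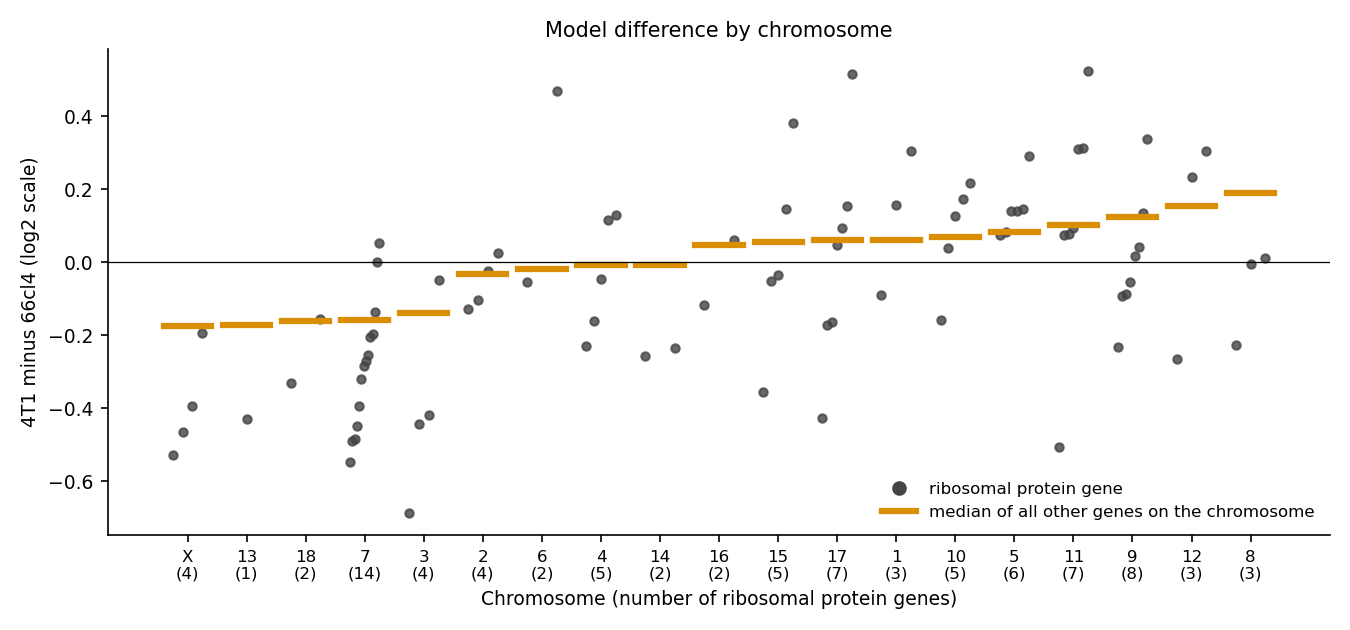
Difference between 4T1 and 66cl4 (log2 scale) of each ribosomal protein gene (gray points) by chromosome, with the number of members in parentheses and the median of all other genes of that chromosome as an orange bar. Chromosomes are ordered by that median, from X (-0.17) to 8 (0.19), and the 14 points of chromosome 7 lie mostly under 0.

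Genes that work beside the ribosomal proteins were taken from lists. Fau, which encodes a small-subunit protein fused to a ubiquitin-like protein and escapes the name rule, was higher in 4T1 by 0.60 ± 0.082. Of 22 translation factors, 13 were higher and 2 lower, with a median of 0.19. The 3 with the smallest adjusted p were Eif3l (0.58 ± 0.045) and Eif3a (0.72 ± 0.070) of the initiation factor eIF3, and the elongation factor subunit Eef1g (0.90 ± 0.082). Of 30 ribosome biogenesis genes, 3 were higher and 17 lower, with a median of -0.13. They included Polr1a, the largest subunit of RNA polymerase I (-1.32 ± 0.057), and the nucleolar factors Nolc1 (-0.92 ± 0.060) and Nop16 (-0.41 ± 0.036). The 12 regulators split into 3 higher and 6 lower. Mycn, a Myc family factor, was at 4.33 ± 2.72 normalized reads (SD, n = 19) in 4T1 and 373 ± 114 (n = 20) in 66cl4. Rps6kb1, an S6 kinase (0.58 ± 0.042), and Larp1, which binds pyrimidine-tract messages (0.55 ± 0.050), were higher in 4T1. Of 77 mitochondrial ribosomal protein genes, 27 were higher and 29 lower (median 0.03). Read against the 78.8% of all genes called, the share called was 68.2% for the translation factors, 66.7% for the biogenesis genes, 75.0% for the regulators and 72.7% for the mitochondrial genes. The share called as higher or lower among all genes was 40.8% or 38.0%.

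Within groups the members rose and fell together from tumor to tumor. Over the 39 tumors, deviations from the group mean had a median Pearson r of 0.74 over the 3741 pairs of members, 0.76 in 4T1 and 0.70 in 66cl4, as a description of values from the same libraries. In 4T1 chitin+anti-PD-1, tumor 1 lay above its group mean for 86 of 87 members and tumor 5 for 2 of 87. In untreated 4T1, tumor 2 was above for 82 and tumor 4 for 4. In 66cl4 chitin, tumor 3 was above for 85 and tumor 5 for 5. Over all genes, 45.2% to 52.8% lay above the group mean in each tumor. Reads were scaled by median ratios over all genes, which pulls that share toward an even split. It is therefore no background for a set of genes, and no r of another gene set is given here.

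The shift was wider in 4T1. The SD within groups was larger in 4T1 than in 66cl4 for 86 of the 87 members. Its median was 0.26 in 4T1 (all genes 0.19, other genes with a mean of at least 11, 0.24) and 0.12 in 66cl4 (all genes 0.11, highly expressed 0.13). Rps15 (r = 0.97) followed the mean of the other members most closely. Rps4l ran against it (r = -0.48), and Rps27l (r = 0.23) and Rps27 (r = 0.28) followed it least. Rps4l and Rps27 had few reads (means of 26.5 and 43.7 per tumor), and the part of counting noise in these r was not tested.

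**Figure D4:**
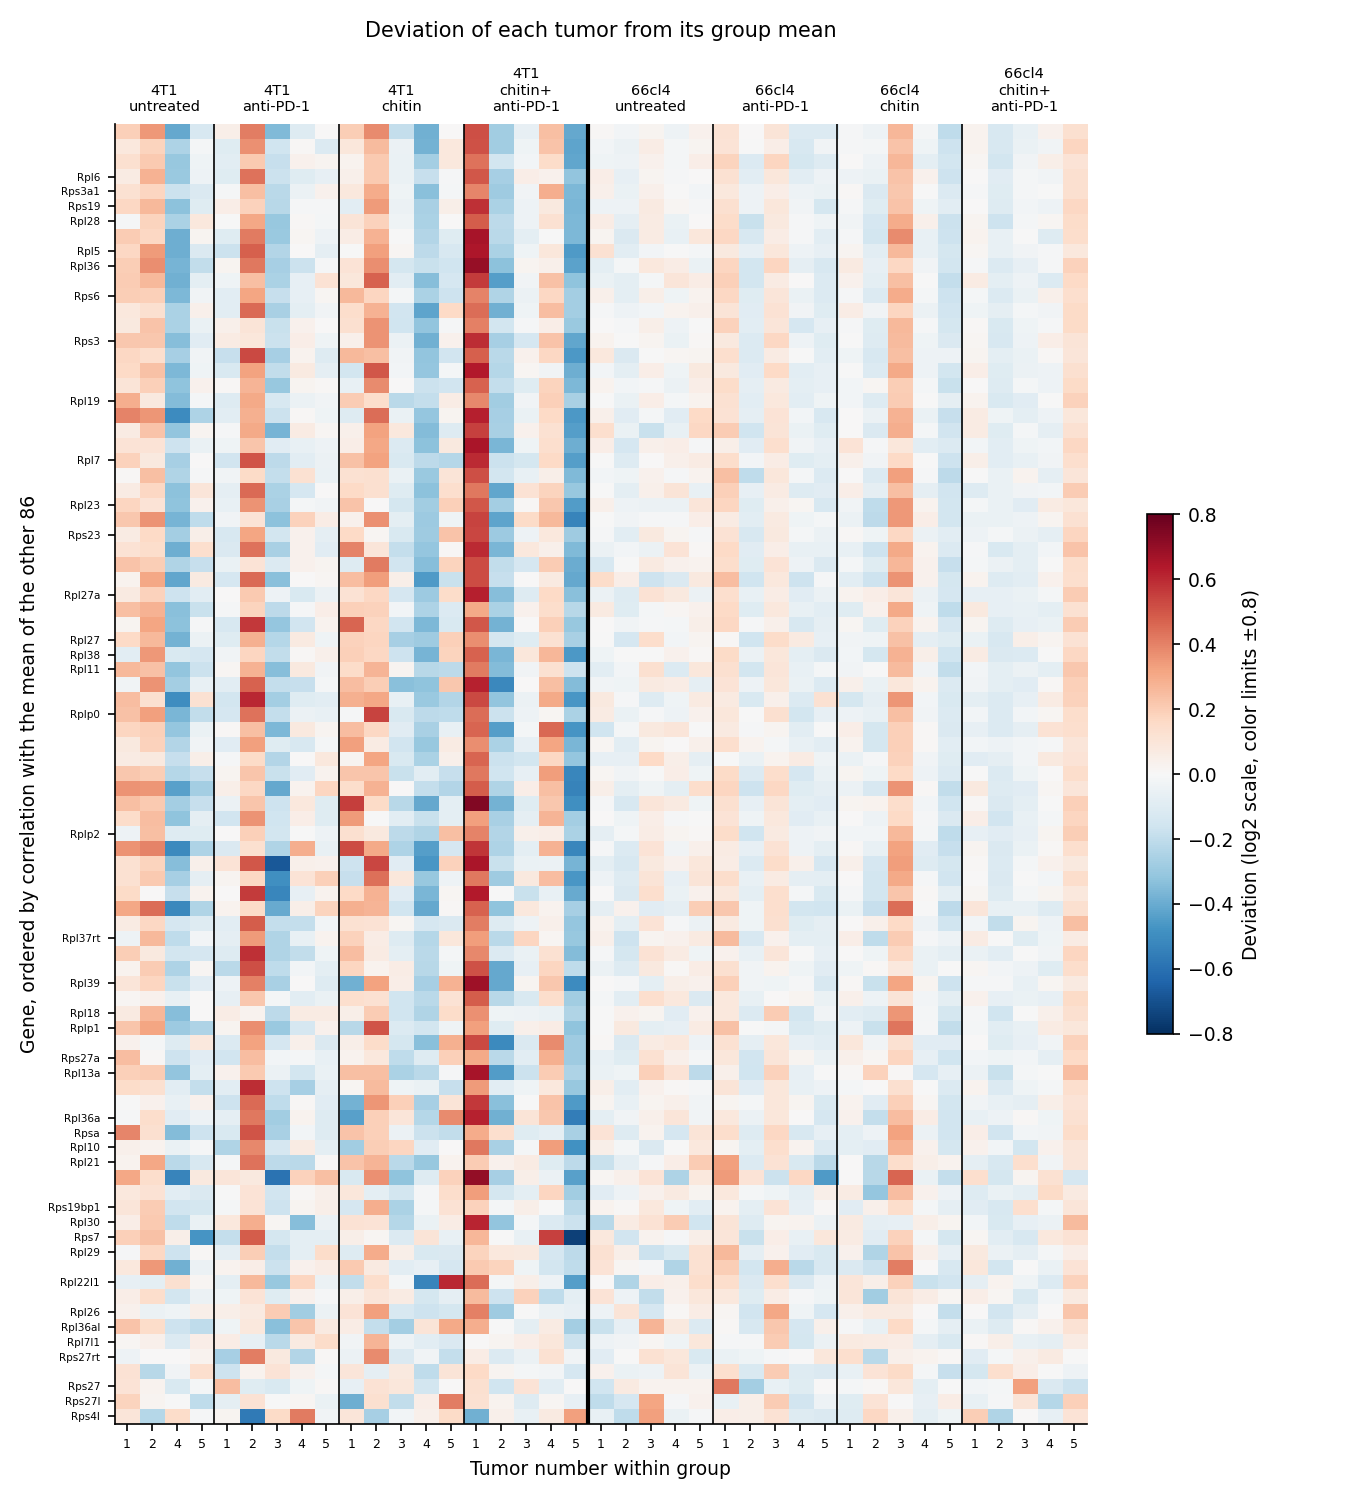
Deviation of each tumor from the mean of its group (log2 scale, color limits ±0.8) for the 87 ribosomal protein genes (rows, ordered by how closely they follow the others, part of them named) in 39 tumors (columns, numbered within group). Columns such as 4T1 chitin+anti-PD-1 tumor 1 are red in nearly all rows (86 of 87 above the group mean) and the lowest row, Rps4l, which has few reads, runs the other way.

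Markers of other cells differed between the same tumors. The 8 fibroblast markers (8 of 8 in the table, none at 0 reads throughout a group) averaged 8.98 in 4T1 chitin+anti-PD-1 tumor 1, the tumor with the highest member mean (12.09), and 12.55 in tumor 5 of that group, the tumor with the lowest (11.32). Summed normalized reads of the fibroblast list ran from 4973 to 181307 in that group, from 25236 to 94443 in untreated 4T1, from 17007 to 159085 with anti-PD-1 and from 33385 to 84463 with chitin. In 66cl4 they ran from 8016 to 19020. The 8 macrophage markers averaged 9.15 in 4T1 chitin+anti-PD-1 tumor 1 and 11.24 in tumor 5, and the 7 neutrophil markers present averaged 9.98 and 8.88. The 12 skeletal muscle markers averaged 9.90 in tumor 5 of that group, 9.03 in untreated tumor 4 and 9.89 in anti-PD-1 tumor 3, which were the lowest in member mean of their groups (11.32, 11.34 and 11.34). Muscle values of the other 4T1 tumors are not given here, so no link can be read from these. Among those left out is chitin tumor 4, which lay lowest in its group (4 members above the group mean). The part of these cell types in the member values was not tested. Without 4T1 chitin+anti-PD-1 tumor 1, 51 members were called between the models, 14 higher and 37 lower, with a median of -0.08. The share of all genes called in that fit is not given here.

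The second comparison asked whether chitin shifted these genes. In 4T1, the 2 chitin groups were set against the 2 groups without chitin. Called members numbered 0, as did called genes overall (0.0% of 14318, limma, adjusted p under 0.05). At an unadjusted p under 0.05 there were 3 members (7.28% of all genes). The median difference of the members was 0.15 with a median SE of 0.12, and 81 of 87 were above 0 (51.7% of all genes). Members deviate together, so this count does not stand for 87 separate observations. Without chitin+anti-PD-1 tumor 1, the median was 0.08. The members at an unadjusted p under 0.05 numbered 23 (all genes 14.3%) when the spread was estimated over all 8 groups and 15 (all genes 13.9%) without anti-PD-1 tumor 2. They numbered 0 without any 1 of 8 tumors, among them anti-PD-1 tumor 1 (all genes 5.36%) and chitin tumor 2 (all genes 8.90%).

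Rps12, a small-subunit protein, had the smallest unadjusted p among members. Of its windows 88.9% were shared, so its values are uncertain. It was at 11.73, 11.82, 11.33 and 11.76 in the untreated and at 11.71, 12.24, 11.53, 11.65 and 11.79 in the anti-PD-1 4T1 tumors. With chitin it was at 12.25, 12.22, 12.00, 11.77 and 12.23, and with chitin+anti-PD-1 at 12.31, 11.47, 12.00, 12.06 and 11.58. Chitin-treated tumors thus spanned 11.47 to 12.31 and the others 11.33 to 12.24, an overlap of nearly the whole range, and the difference was 0.27 ± 0.12 (SE, adjusted p = 0.67). Rpl22 (0.26 ± 0.12) and Rpl7 (0.29 ± 0.14) were next.

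In 66cl4, chitin gave 0 called members and 0 called genes (0.0%) by the same limma test, with 1 member at an unadjusted p under 0.05 against 15.6% of all genes. The median difference was -0.02 (median SE 0.053), and 63 of 87 were below 0 (48.5% of all genes). Rpl13 (-0.15 ± 0.070) and Rps7 (-0.11 ± 0.052) were among the members with the smallest p. Without chitin tumor 3, in which 85 members were above the group mean, 12 members (13.8%) had an unadjusted p under 0.05, against 17.8% of all genes, and the median was -0.05.

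The effect of chitin was compared between the models by an interaction term. The limma test called 0 members and 14 genes in all (0.0978%). The members numbered 5 at an unadjusted p under 0.05 (13.2% of all genes), and the 4T1 effect minus the 66cl4 effect was above 0 for 82 of 87 (51.9% of all genes), with a median of 0.16 and a median SE of 0.13. Without 4T1 chitin+anti-PD-1 tumor 1 the median was 0.10. Rps12 (0.33 ± 0.13, adjusted p = 0.26) had the smallest p, and Rpl7 (0.29 ± 0.14) was among the first. With array weights, which give variable tumors less weight, 2 members (Rps12 among them) were called, against 7.01% of all genes.

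The third comparison asked about anti-PD-1 alone. In 66cl4, limma called 0 members and 0 genes (0.0%) between anti-PD-1 and untreated tumors. The difference was below 0 for 86 of 87 members (48.9% of all genes), with a median of -0.14 and a median SE of 0.075. At an unadjusted p under 0.05 there were 28 members, against 5.36% of all genes. This count rested on the fit and on single tumors. It was 1 (all genes 1.30%) when the spread was estimated over all 8 groups, 8 (all genes 4.71%) without anti-PD-1 tumor 2 and 46 (all genes 7.46%) without anti-PD-1 tumor 1.

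Rpl22, a large-subunit protein, was at 11.55, 11.50, 11.67, 11.61 and 11.65 in the untreated and at 11.54, 11.39, 11.44, 11.38 and 11.32 in the anti-PD-1 66cl4 tumors. Only anti-PD-1 tumor 1 reached the untreated range, and the difference was -0.18 ± 0.054 (SE, adjusted p = 0.90). Rps23 was at 12.67, 12.60, 12.76, 12.70 and 12.67 untreated and at 12.60, 12.35, 12.56, 12.47 and 12.43 with anti-PD-1, a difference of -0.20 ± 0.063. Rpl37 differed by -0.16 ± 0.060. The member mean of untreated 66cl4 tumors was between 11.73 and 11.82, the narrowest of all groups, and anti-PD-1 tumors 2, 4 and 5 lay below it at 11.56, 11.58 and 11.57. The 8 macrophage markers averaged 11.55 to 12.02 in untreated and 11.80 to 12.29 in anti-PD-1 tumors of this model, with summed normalized reads of 27223 to 40049 and 33409 to 47626, and their part was not tested.

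In 4T1, anti-PD-1 gave 0 called members and 0 called genes (0.0%, limma). At an unadjusted p under 0.05 there were 0 members (8.89% of all genes). The median was -0.04 with a median SE of 0.17, and 57 of 87 members were below 0 (50.1% of all genes). The smallest p belonged to Rpl29 (-0.22 ± 0.11, adjusted p = 0.56), one of the genes with uncertain counts, which was at 8.92, 9.10, 8.77 and 8.94 untreated and at 8.64, 8.91, 8.52, 8.63 and 8.85 with anti-PD-1. Rps23rg1 (0.16 ± 0.091) and Rpl36al (0.21 ± 0.14) followed. The interaction of anti-PD-1 with the model called 0 members and 0 genes (0.0%). It had 2 members at an unadjusted p under 0.05 (7.27% of all genes) and 72 of 87 above 0 (50.6% of all genes), with a median of 0.09 and a median SE of 0.18. Rps23rg1 (0.33 ± 0.12), Rps23 (0.36 ± 0.17) and Rps21 (0.53 ± 0.27) came first.

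The remaining comparisons set chitin alone and chitin+anti-PD-1 against the same untreated tumors, so that within a model all comparisons with untreated share those values. None called a member or any other gene (0.0% in each, limma). In 4T1, chitin gave a median of 0.18 (median SE 0.17) with 81 of 87 above 0 (49.0% of all genes) and 2 at an unadjusted p under 0.05 (2.77%). Rps12 (0.43 ± 0.18), Rps23rg1 (0.22 ± 0.091) and Rps28 (0.39 ± 0.20) led. Chitin+anti-PD-1 gave 0.07 (median SE 0.17) with 69 above 0 (49.7% of all genes) and 0 at an unadjusted p under 0.05 (2.56%), led by Rps23rg1 (0.18 ± 0.091), Rps13 (0.23 ± 0.13) and Rpl32l (-0.15 ± 0.096).

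In 66cl4, chitin gave a median of -0.09 (median SE 0.075) with 85 of 87 below 0 (50.0% of all genes) and 8 at an unadjusted p under 0.05 (11.4%). Chitin+anti-PD-1 gave -0.09 (median SE 0.075) with 84 below 0 (49.0% of all genes) and 7 at an unadjusted p under 0.05 (10.6%). For Rps7 the chitin difference was -0.18 ± 0.073 and the combined one -0.19 ± 0.073. Rpl5 (-0.18 ± 0.069, chitin) and Rps23 (-0.15 ± 0.063, chitin+anti-PD-1) were also among those with the smallest p.

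**Figure D5:**
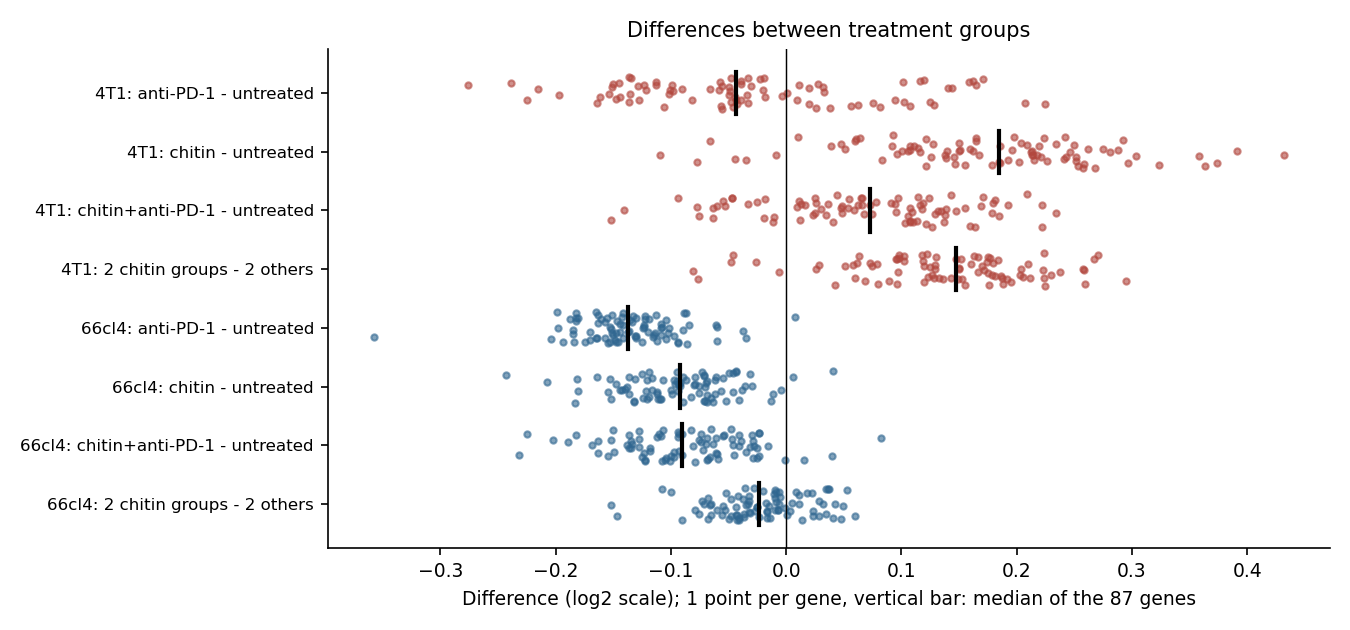
Differences between treatment groups for the 87 ribosomal protein genes (horizontal axis, log2 scale), 1 point per gene and 1 row per comparison (red 4T1, blue 66cl4), with the median as a black bar. Medians run from -0.14 (66cl4 anti-PD-1 minus untreated) to 0.18 (4T1 chitin minus untreated), and no gene in any row had an adjusted p under 0.05.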

How the data were processed

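The deposited table held variance-stabilized values on a log2 scale for 14318 genes in 39 tumors. The authors mapped paired reads to mm10 with HISAT2, counted them per gene with strand information in intersection non-empty mode, dropped genes with few counts and applied the DESeq2 variance-stabilizing transformation. Read counts were recovered by inverting the transformation. All values (100%) came out whole within 0.001 reads, and the implied size factors were median ratios in all 39 tumors. Counting precision is limited by 5105898 to 14800352 reads per tumor.

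Groups were compared on the deposited values with limma 3.58.1 (R 4.3.3; linear model, trended empirical Bayes), adjusted by Benjamini-Hochberg over all genes at 0.05, two-sided. Model comparisons and interactions used 1 fit of 8 groups, and treatment comparisons used the 4 groups of a model. Test, transformation and read recovery were tested on simulated data. Tables and figures were made with Python 3.11.15, pandas 2.3.3 and matplotlib 3.10.9. Tumors of a group were compared in 76 pairs, and none agreed within sampling noise (lowest mean chi-square per gene 2.91).

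Members and lists were chosen with earlier results of these data known. Named were, among members called between the models, the 10 highest and 10 lowest differences, the 3 with the smallest unadjusted p in each treatment comparison, all paralog, extraribosomal and stalk genes, the 5 canonical genes with the fewest reads, and 3 genes per context list. Further genes named by chromosome or as extremes of a description were chosen after their values were seen. Results of some genes that the rule names are not reported here. Gene positions are RefSeq (GRCm38.p6). Shared 100-base windows and coding sequences are from GENCODE transcripts (1 transcript per gene).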

Additional observations from a re-analysis of the deposited data

Results flagged for a closer look

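In 9 of 136 groups of 4 or 5 tumors examined over 17 measures, 1 tumor stood far from the others of its group by Dixon's criterion, which chance meets in about 1 of 20 groups. In 66cl4 chitin, tumor 3 was high for Rpl27 (11.86, others 11.53 to 11.60), Rpl18 (13.22, others 12.72 to 12.85) and Rpl36al (10.29, others 10.06 to 10.12). This tumor had the most counted reads (14800352) and 85 of 87 members above the group mean. In 66cl4 chitin+anti-PD-1, tumor 5 was high for Rpl30 (9.62, others 9.25 to 9.35). In untreated 66cl4, tumor 2 was low for Rpl37rt (8.34, others 8.53 to 8.58).

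In 4T1 chitin, tumor 2 was high for Rpl7l1 (10.26, others 9.87 to 9.96) and Rps27rt (7.59, others 7.02 to 7.19). In 4T1 anti-PD-1, tumor 3 was low for Rpl18 (12.10, others 12.34 to 12.38). In untreated 4T1, tumor 2 was high for Rpl38 (11.16, others 10.68 to 10.73).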

How the results depend on the processing

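The alternatives were a filter on genes of low mean (the lowest 25%), a fit with no trend, median centring, quantile normalization, log2 of RPM + 1, limma-voom on recovered reads, array weights, a replicate block, other samples in the fit, and leaving out each tumor in turn. The number of members called between the models stayed within 1.5 times of the reported number under all of them. Without 1 tumor, 47 to 55 members were called over all treatments and 29 to 37 in untreated tumors, and the median difference of the members ran from -0.08 to -0.03 and from -0.25 to -0.09. The shares of all genes called between the models in these fits are not given here, so the member counts have no background. For chitin the median difference of the members ran from 0.08 to 0.18 in 4T1 and from -0.05 to -0.0037 in 66cl4. Every treatment comparison gave 0 called members under each alternative except the interaction of chitin with the model, which gave 2 with array weights, and the cause was not tested. Over all genes that interaction gave 14 calls, and 1004 with array weights, 104 with the replicate block, 39 with quantile normalization, 8 with limma-voom, 8 without low genes and 0 with log2 of RPM + 1. Array weights also gave 960 genes for anti-PD-1 in 4T1, 297 for chitin in 4T1, 185 for chitin in 66cl4 and 331 for the interaction of anti-PD-1, where the reported counts were 0. The fit of all 8 groups gave 60, 58 and 1 for the first 3 of these and 3 for chitin+anti-PD-1 in 4T1, and the filter gave 6 for chitin in 66cl4. Rpsa, not called, turned from 0.02 to -0.0070 with median centring, -0.17 with quantile normalization, -0.056 with log2 of RPM + 1 and -0.055 with limma-voom, and ran from -0.0151 to 0.0465 without single tumors. Of 583 other single-gene values, 11 lost and 9 gained a call, and of 2262 values without 1 tumor, 15 and 16. The spread between tumors of a group, and in genes such as Rps27 the number of reads, limits what could be detected.

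Tumor numbers recur in all groups, but the labels tie nothing to a number, and deviations of same-numbered tumors had a median correlation of -0.0020 (41 of 133 pairs above 0.1). With the replicate block, 50 members were called over all treatments and 35 in untreated tumors, against 51 and 34. The shares of all genes called with the block in these model comparisons are not given here. The block gave 16 genes for chitin in 66cl4, 2 and 7 for chitin and chitin+anti-PD-1 against untreated 66cl4, and 1 for chitin+anti-PD-1 in 4T1, where the reported counts were 0. Within models, 13 of 39 tumors correlated best with their own number, as a hint from the data and not the design.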
